A study of Mus musculus with 9 samples.

Results

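Splenic B cells of mice homozygous for a point mutation of Kmt2d (HOM) were compared with those of heterozygous mice (HET) by their DNA methylation. Both groups carry the same allele, an A>T change at position 98835228 of chromosome 15 that the labels give as Ile5482Asn, on both copies in HOM and on 1 copy in HET. The labels of both table columns also name ENU, a chemical mutagen, and no treatment was given. B cells were taken from whole spleen by magnetic depletion of other cells, so they are bulk B cells and not one subset. Of the 9 samples of the series, 4 belong to these groups, but the table holds 1 pair of columns for each genotype, called a library here, and 2 of its 3 pairs were compared. Each difference below is therefore between 2 libraries and has no replicate check. The comparison covered 19381 gene ends, 17164 gene bodies, 66971 low-methylated regions and 463273 tiles of 5 kb on the autosomes. These were the regions with at least 30 CpG reads, the reads summed over CpGs, in both libraries, out of 20665, 17646, 69587 and 492157. The wild-type library (WT), which carries no mutation, is quoted beside the others as a level and takes no part in the comparison.

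KMT2D is a histone methyltransferase that places methyl groups on lysine 4 of histone H3, mainly at enhancers. CpG methylation and H3K4 methylation tend to exclude each other: most CpGs of a mammalian genome are methylated, while active promoters and enhancers are not. In B cells, KMT2D is known as a regulator of the germinal centre response and as a gene often mutated in lymphoma.

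The promoters of a germline gene and of a T cell gene lie in gene ends that differed far more than most. The sequences below come from RefSeq (GRCm38.p6), run 5′ to 3′ on the strand of the gene from 250 bases before to 50 bases after a transcription start, and have their CpGs in capitals. Tdrd1 encodes a Tudor protein of the piRNA pathway of germ cells, and its gene end was called lower in HOM. Cd3e encodes a chain of the T cell receptor complex. Its gene end was the lowest of the T cell list relative to HET and was not called.
Tdrd1, chr19:56825959-56826258, plus strand: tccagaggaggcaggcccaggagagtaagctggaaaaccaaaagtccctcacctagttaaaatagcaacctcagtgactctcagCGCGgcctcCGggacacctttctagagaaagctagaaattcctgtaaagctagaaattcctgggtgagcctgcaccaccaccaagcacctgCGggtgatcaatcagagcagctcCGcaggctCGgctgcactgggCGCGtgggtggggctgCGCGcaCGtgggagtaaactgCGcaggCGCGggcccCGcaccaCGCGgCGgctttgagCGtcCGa
Cd3e, chr9:45009562-45009861, minus strand: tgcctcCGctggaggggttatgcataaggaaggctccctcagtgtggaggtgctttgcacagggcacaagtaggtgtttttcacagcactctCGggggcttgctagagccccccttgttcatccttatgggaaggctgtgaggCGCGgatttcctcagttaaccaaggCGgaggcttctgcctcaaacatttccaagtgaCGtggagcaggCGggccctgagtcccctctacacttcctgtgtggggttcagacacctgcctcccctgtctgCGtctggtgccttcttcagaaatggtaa
Over the 20 CpGs of the Tdrd1 window the level was 69.9% in WT, with 84.3% in HET and 45.8% in HOM, from 93, 153 and 240 CpG reads. HOM stood below HET at 18 of the 20 CpGs. Counted from the first base printed, the CpG at base 222 was methylated in 90% of 10 reads in HET, in 16.7% of 12 reads in HOM and in 60% of 5 reads in WT. The CpGs at bases 85 and 94 stood higher in HOM, at 100% against 87.5% and at 83.3% against 71.4%. The difference over the window was -38.5 points, with an interval of -59.4 to -7.84. In the Cd3e window, 8 CpGs stood at 53.1% in WT, with 75.6% in HET and 54.8% in HOM, from 96, 82 and 135 CpG reads. The difference of -20.8 points had an interval that included 0 (-41.6 to 4.12), and the CpGs at bases 144 and 273 had no read in HET.

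The HOM library was less methylated across most of the genome. The level over all autosomal CpGs was 76% in WT, with 75.5% in HET and 72.3% in HOM, at a mean of 9.52, 13.4 and 10.2 reads per CpG. Mean tile level was 79.9% in HET and 77.3% in HOM, and the mean difference of HOM minus HET was -2.68 points (95% counting interval -2.69 to -2.67). Gene bodies, the gene without 1000 bp at each end, had a mean difference of -2.73 points (-2.77 to -2.70), and 88.4% of them stood below 0. Gene ends, the CpG-richer end of each gene from 1000 bp outside to 500 bp inside, had a mean difference of -1.53 points (-1.60 to -1.46). Low-methylated regions went the other way. These are short CpG runs outside CpG islands with a level under 50% in the mean of the 3 genotypes, and such regions often mark enhancers. Their mean was 23% in HET and 23.4% in HOM, a difference of 0.37 points (0.30 to 0.44). The mitochondrial level, a gauge of unconverted cytosines, was 0.607% in HET and 0.556% in HOM with overlapping intervals (0.554 to 0.665 and 0.499 to 0.620).

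**Figure D1:**
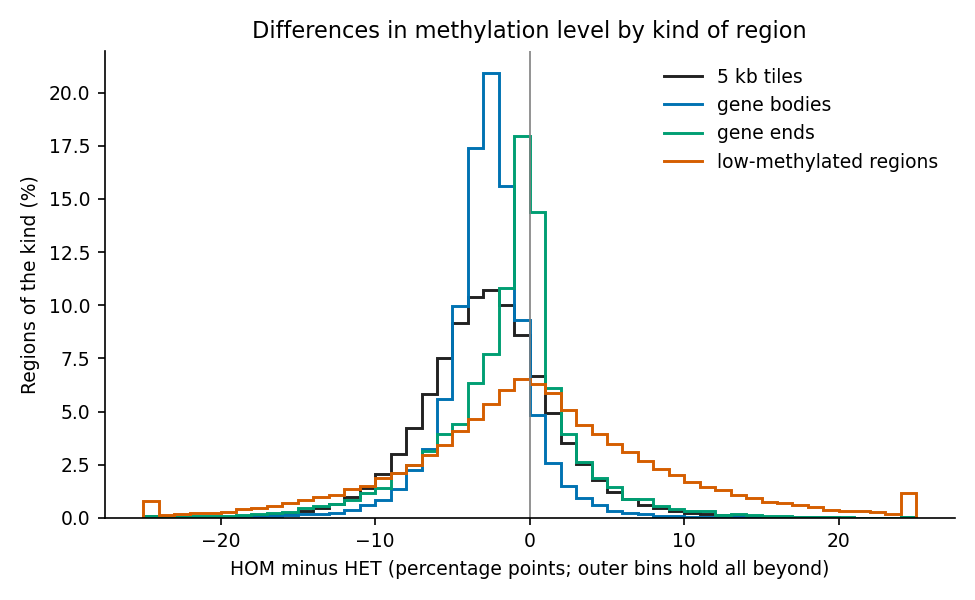
Share of regions (%) against the difference HOM minus HET (percentage points, bins of 1 point) for the 4 kinds of region, with all values beyond 25 points in the outer bins. Tiles and gene bodies lie mostly below 0, with means of -2.68 and -2.73 points, while low-methylated regions spread to both sides with a mean of 0.37 points.

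The reads of the libraries were not spread alike over unmethylated and methylated CpGs. Per CpG, islands held 0.793 times the autosomal mean coverage in HOM and 0.696 times in HET, with 0.719 in WT. Pooling reads therefore gave unmethylated CpGs more weight in HOM. A position-matched difference, which compares the libraries CpG by CpG and then averages with the same weights for both, is given beside the pooled one below. It was chosen after the data had been seen. Matched in this way the mean differences were -2.68 points in tiles, -2.54 in gene bodies, -1.22 in gene ends and 0.46 in low-methylated regions.

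The difference varied with the level that a region had in WT, which is not part of the contrast, but not evenly. Tiles at 0 to 10% in WT differed by -0.86 points on average, those at 30 to 40% by -2.58, those at 50 to 60% by -1.92 and those at 80 to 90% by -2.83 points (-2.85 to -2.82). Gene ends differed by -0.50, -1.81, -1.32 and -3.07 points in the same classes. Low-methylated regions stood apart at the same levels. At 20 to 30% in WT they differed by 0.71 points (0.57 to 0.85), where tiles differed by -2.45 (-2.55 to -2.35) and gene ends by -2.04 (-2.36 to -1.71). Position-matched, these 3 values were 0.81, -1.01 and -0.98, so the gap narrowed and the signs held. At 40 to 50% in WT low-methylated regions were below 0 as well, at -1.14 points (-1.48 to -0.79). Among tiles at 70% or more in WT the difference ranged over classes of CpG number from -2.82 points in tiles with 40 to 60 CpGs to -2.16 in the 4139 tiles with 100 or more.

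**Figure D2:**
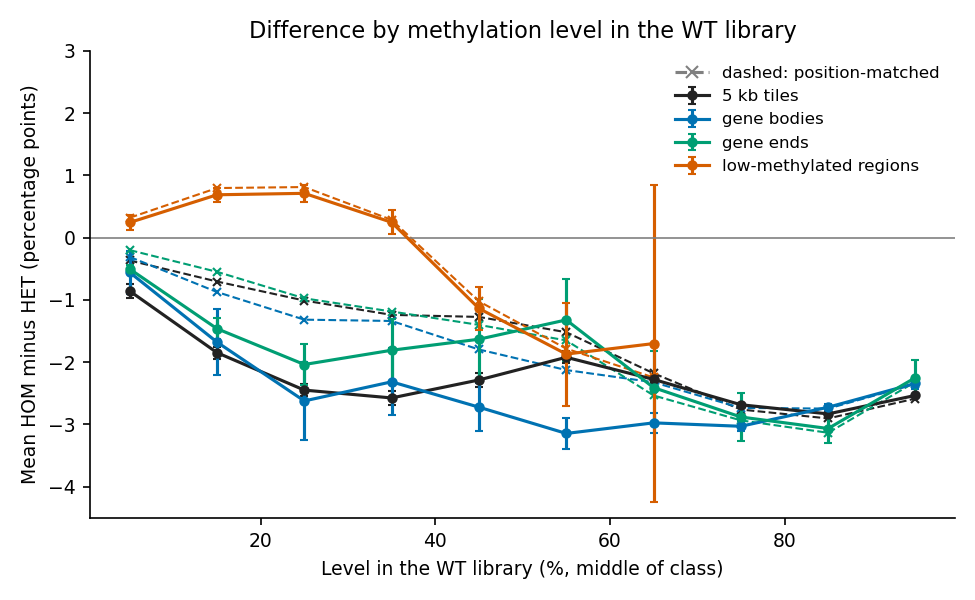
Mean difference HOM minus HET (percentage points; bars are 95% counting intervals) against the level in the WT library (%, classes of 10 points) for the 4 kinds of region, with position-matched values dashed. Low-methylated regions lie above 0 up to 40% and the other kinds below 0 in every class shown.

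Around gene starts the difference was least at the start itself. In the 500 bp after the start, over 14646 genes of known strand, the level was 7.81% in WT, with 8.01% in HET and 7.23% in HOM, a difference of -0.78 points. From 1500 to 1999 bp inside the gene it was 60.3%, 60.4% and 56.7%, a difference of -3.68 points, or -3.18 position-matched, the lowest of the bins from 5000 bp before to 19999 bp after the start. From 10000 to 10499 bp inside, the difference was -2.50 points. HOM held 86.4% as many reads as HET just after the start and 78.1% as many in the bin from 10000 bp.

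A region was called where the libraries differed by at least 10 points and the two-sided Fisher's exact test, on counts divided by the CpGs that 1 read covers, gave an adjusted p below 0.05 over all regions of its kind. This test compares the reads of these libraries, not the genotypes. Of the gene bodies, 204 were called lower in HOM (1.19%) and 19 higher (0.111%). Position-matched, 74 of the 204 and 8 of the 19 still differed by at least 10 points in the same direction. With HOM scaled to the mean tile level of HET, 63 were called lower and 29 higher. The called bodies were short, with a median of 64 CpGs among the lower ones against 233 among all. The 2563 bodies of up to 5 kb held 91 lower calls, and the 2245 bodies over 100 kb held 2. Taken over all bodies, the means were HOM 75.02%, HET 77.75% and WT 78.25%, so WT already lay nearer HET there. How many of all bodies had WT nearer HET was not counted, so the counts that follow have no share to be compared with. The median body called lower stood at 71.3% in WT, with 73.7% in HET and 60.3% in HOM, and WT was nearer HET in 150 of the 204. The median body called higher stood at 66.7% in WT, with 55.2% in HET and 66.7% in HOM, and WT was nearer HOM in 15 of the 19.

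**Figure D3:**
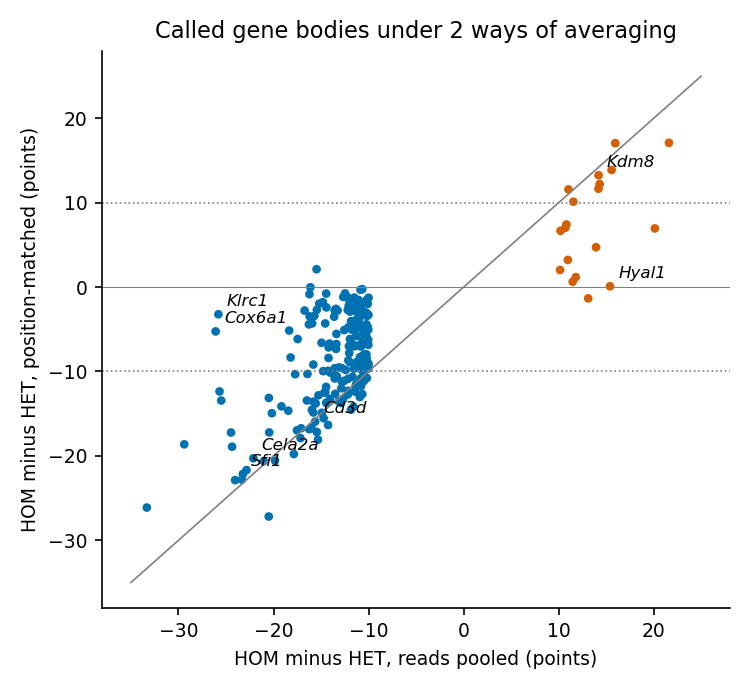
Position-matched difference against pooled difference (both HOM minus HET, percentage points) for the 204 gene bodies called lower (blue) and the 19 called higher (orange), with the diagonal of equal values and dotted lines at 10 points. Cela2a, Sfi1, Cd3d and Kdm8 lie near the diagonal, while Klrc1, Cox6a1 and Hyal1 lie near 0 on the vertical axis.

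Among the 10 gene bodies furthest below HET, 8 kept a position-matched difference of 10 points. Cela2a, a pancreatic elastase gene (chromosome 4, 141815954 to 141825005, 135 CpGs), stood at 70.5% in WT, with 85.4% in HET and 63.3% in HOM from 1344, 2467 and 1400 CpG reads. Its difference was -22.1 points (-26.9 to -17.4, adjusted p = 2.79e-19, Fisher's exact test, Benjamini-Hochberg adjusted), or -20.3 position-matched. HET was the highest library here and HOM the lowest. Mxra8, which encodes a cell surface protein known as a receptor of arthritogenic alphaviruses (chromosome 4, 155840680 to 155843102), stood at 29.3%, 46.0% and 21.5% from 1145, 1505 and 1506 CpG reads. Its difference was -24.5 points (-31.8 to -16.7), or -17.2 position-matched. Zar1, an oocyte gene needed after fertilization, stood at 42.6%, 65.9% and 40.4%, a difference of -25.5 points, or -13.4 position-matched. In both genes HET again stood highest and HOM lowest. Insl5, a gut hormone of the insulin and relaxin family, stood at 79.6%, 77.9% and 53.9%, but its 91 CpGs held only 0.112 and 0.152 times the mean coverage in HET and HOM. Sfi1, which encodes a centrosome protein, stood at 68.6%, 72.6% and 49.3% with 7.32 and 9.71 times the mean coverage in HET and HOM. At such a depth, reads of other copies of the sequence cannot be told apart from those of the gene, and its value is uncertain. Cox6a1, a subunit of cytochrome c oxidase, and Klrc1, an NK cell receptor of the NKG2 family, did not keep 10 points. They went from -26.1 to -5.25 points and from -25.8 to -3.22 when position-matched.

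The 10 bodies include 3 ribosomal protein genes. Rps20 stood at 43.5% in WT, with 50% in HET and 24.3% in HOM from 62, 82 and 74 CpG reads. Rpl21 stood at 66.7%, 67.0% and 42.7% from 375, 446 and 403, and Rpl13a at 56.5%, 61.8% and 39.0% from 193, 322 and 290. In each of them HOM was the lowest library. Their position-matched differences were -12.4, -18.9 and -21.7 points. Coverage in HET and HOM was 0.557 and 0.658 times the mean at Rps20, 1.01 and 1.19 at Rpl21 and 0.891 and 1.05 at Rpl13a. These genes have processed copies elsewhere in the genome, and whether the counting split reads between copies was not tested. As a group chosen after these values were seen, 40 cytosolic ribosomal protein genes with bodies of up to 5 kb had a median difference of -5.12 points (-5.22 position-matched) against -2.69 in all bodies of that length, and 6 were called lower and 0 higher, where all 2563 bodies of that length held 91 lower calls. Position-matched, 5 of these 6 and 50 of these 91 still differed by at least 10 points. The 23 hosts of annotated small nucleolar RNAs of that length, a group that shares members with the first, had a median of -8.58 points (-6.66 position-matched) and 7 lower calls, of which 2 held position-matched. Longer hosts held 0 calls, and all 53 hosts had a median of -3.70 points (-2.78 position-matched) against -2.65 (-2.45) in all bodies.

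Of the 10 gene bodies furthest above HET, 6 kept 10 points when position-matched. Kdm8, which encodes a JmjC-domain oxygenase (chromosome 7, 125445620 to 125462651, 186 CpGs), stood at 90.2% in WT, with 75.2% in HET and 89.4% in HOM from 1957, 2894 and 2339 CpG reads. Its difference was 14.2 points (11.4 to 16.97, adjusted p = 9.11e-20, Fisher's exact test, Benjamini-Hochberg adjusted), or 13.2 position-matched. HET was the low library, and the other libraries stood close together. Fam43a stood at 8.16%, 11.8% and 27.3% from 895, 1276 and 1193 CpG reads, with HOM above both others, and its position-matched difference was 13.9 points. Pgls, an enzyme of the pentose phosphate pathway, stood at 57.2%, 45.1% and 59.4%. Rem2, a small GTPase that inhibits calcium channels, stood at 47.3%, 38.4% and 52.6%, and the odorant receptor gene Olfr449 at 89.7%, 75.5% and 91.5%. In these 3 genes HET was the lowest library, and their position-matched differences were 12.2, 11.7 and 17.1 points. Zfp992 stood at 72.4%, 71.9% and 83.4%, with 2.31 times the mean coverage in HET and 0.538 times in HOM, and differed by 10.1 points position-matched. The other 4 did not keep 10 points. Hyal1, a hyaluronidase gene, went from 15.4 to 0.095 points, Cks1brt from 13.9 to 4.72, Exosc3, an exosome subunit gene, from 11.8 to 1.18, and Spx from 13.1 to -1.34.

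At gene ends 3 were called lower (0.0155%) and 0 higher (0%), and at an unadjusted p below 0.05 the same difference of 10 points was reached by 476 lower and 99 higher. With HOM scaled so that the mean tile level equalled that of HET, 0 ends were lower and 2 higher, so all 3 calls end under that scaling. Tdrd1 (chromosome 19, 56825171 to 56826670, 58 CpGs, holding a transcription start) stood at 71.99% in WT, with 85.5% in HET and 61.1% in HOM from 332, 429 and 527 CpG reads. Its difference was -24.5 points (-34.2 to -14.3, adjusted p = 0.0280, Fisher's exact test, Benjamini-Hochberg adjusted), or -23.3 position-matched. The promoter printed above lies in this window. Arl9, which encodes a small GTPase of the ARF-like family (chromosome 5, 77001744 to 77003243), stood at 84.1%, 87.2% and 59.0% from 409, 586 and 597 CpG reads, or -25.5 points position-matched, at an end that does not hold its annotated start. HOM was the lowest library at both. Igdcc4, an immunoglobulin superfamily gene, stood at 57.6%, 56.4% and 33.6%, but its position-matched difference was -0.86 points.

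Low-methylated regions held the greatest single differences, and they hardly depended on the averaging. Of them 55 were called higher (0.0821%) and 30 lower (0.0448%) in HOM, and 53 and 30 kept 10 points position-matched. The median region called higher stood at 24.5% in WT, with 13.9% in HET and 48.1% in HOM, and WT was nearer HET in 39 of the 55. The median region called lower stood at 28.3%, 49.5% and 12.1%, and WT was nearer HOM in 18 of the 30. Taken over all such regions, the means were HOM 23.41%, HET 23.04% and WT 23.03%. A share of all regions with WT nearer HET, to set beside these counts, was not computed. The limit of 50% that defines these regions is on a mean that includes WT. A region with a high level in HET or HOM was therefore kept more readily where WT was low. This selection favours WT near the lower library in both directions, so the counts do not show which genotype moved away from WT. The called regions held a median of 13 CpGs in both directions against 7 in all. A share of 60% of the higher ones and 46.7% of the lower ones lay within a gene, against 50.4% of all.

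The region furthest above HET lay within Aunip, a gene whose product binds Aurora A kinase (chromosome 4, 134512919 to 134513358). It stood at 14.8% in WT, with 16.5% in HET and 93.4% in HOM from 122, 224 and 76 CpG reads, a difference of 76.9 points (48.8 to 87.0, adjusted p = 0.00221, Fisher's exact test, Benjamini-Hochberg adjusted). A region within Ephb2, an ephrin receptor gene (chromosome 4, 136712016 to 136712380), stood at 24.3%, 12.96% and 86.0% from 107, 108 and 86. In both, HOM stood apart from the other libraries. With HOM so high, the limit on the mean level favoured regions with a low WT, so the place of WT is partly set by the selection. Another region lay 11817 bp from Sf3b1, a splicing factor gene (chromosome 1, 54973219 to 54973486), and stood at 27.9%, 5.71% and 65.6%. One lay 72875 bp from Rb1cc1, an autophagy gene (chromosome 1, 6140623 to 6142896), and stood at 57.1%, 9.17% and 62.4%. In both regions of chromosome 1 HET was the lowest library.

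The region furthest below HET lay within Cela2a (chromosome 4, 141822189 to 141822410), inside the gene body described above. It stood at 40.9% in WT, with 72.9% in HET and 10.9% in HOM from 44, 85 and 110 CpG reads, a difference of -62.0 points (-75.9 to -40.4). A region within Ablim1, an actin-binding protein gene (chromosome 19, 57311519 to 57312105), stood at 45.2%, 66.2% and 11.3%. One 16867 bp from Capzb, an actin capping protein gene (chromosome 4, 139175760 to 139176304), stood at 45.6%, 59.2% and 5.77%. WT stood between the other libraries in all of them. One 17942 bp from C1qb, a gene of complement C1q (chromosome 4, 136862048 to 136862321), stood at 39.9%, 58.9% and 10.2%. One within Camk2b, a calmodulin-dependent kinase gene (chromosome 11, 6047870 to 6048569), stood at 40.2%, 61.3% and 14.9%. WT lay between HET and HOM there as well. Regions near genes with a role in B cells were also called, and they are named here after their values were seen. A region 1141 bp from Irf8, a B cell transcription factor gene, stood at 36.1%, 14.4% and 36.5%. One 14551 bp from Klf2, a factor of lymphocyte homing, stood at 26.7%, 2.24% and 23.9%, and one 13898 bp from Tnfrsf14, a lymphoma-linked receptor gene, stood at 29.6%, 44.8% and 3.01%. HET was the low library near Irf8 and Klf2, and HOM near Tnfrsf14. The position-matched difference near Klf2 was 9.40 points.

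Tiles were called lower in 2959 places (0.639%) and higher in 341 (0.0736%), and 1776 and 214 of these kept 10 points position-matched. With HOM scaled to the mean tile level of HET, 739 were lower and 823 higher, which turns the excess. The tile furthest above HET lay 417239 bp from Sntg1 (chromosome 1, 7940001 to 7945000) and stood at 43.5% in WT, with 12.7% in HET and 81.5% in HOM. Its 93 CpGs held only 92, 63 and 81 CpG reads, or 0.104, 0.0506 and 0.0852 times the mean coverage. Tiles 266308 bp from Prim2 and 408872 bp from Pcmtd1, also on chromosome 1, stood at 61.2%, 34.3% and 84.2% and at 67.7%, 31.5% and 76.9%. All 3 kept at least 39.9 points position-matched. A tile within Camk2b (chromosome 11, 6005001 to 6010000) stood at 74.7%, 69.0% and 11.4% from 288, 171 and 676 CpG reads, or -54.0 points position-matched. The other tiles furthest below HET, within Lars2 and 16384 bp from Gtpbp4, had differences of -58.9 and -55.6 points that became -2.36 and 1.51 position-matched. They held 592 and 450 CpG reads in HET against 2650 and 1528 in HOM.

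The differences were not even along the genome. Over 2388 megabases with at least 50 tiles the mean difference was -2.68 points (SD 0.908 across megabases), and 2368 of them stood below 0. The lowest megabase was chromosome 12, 114000001 to 115000000, at -11.7 points, followed by the next one at -9.80. These hold V segments of the immunoglobulin heavy chain locus, which B cells join to D and J segments. Over all V segments of that locus (chromosome 12, 113572929 to 116009954) the level was 65.8% in WT, with 76.0% in HET and 62.7% in HOM, a difference of -13.2 points (-13.9 to -12.6), or -8.48 position-matched. Coverage there was 0.405, 0.420 and 0.395 times the mean. The kappa light chain V segments differed by -3.11 points, the V segments of T cell receptor beta by -3.84 and those of alpha and delta by -6.74, or -5.59 position-matched.

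**Figure D4:**
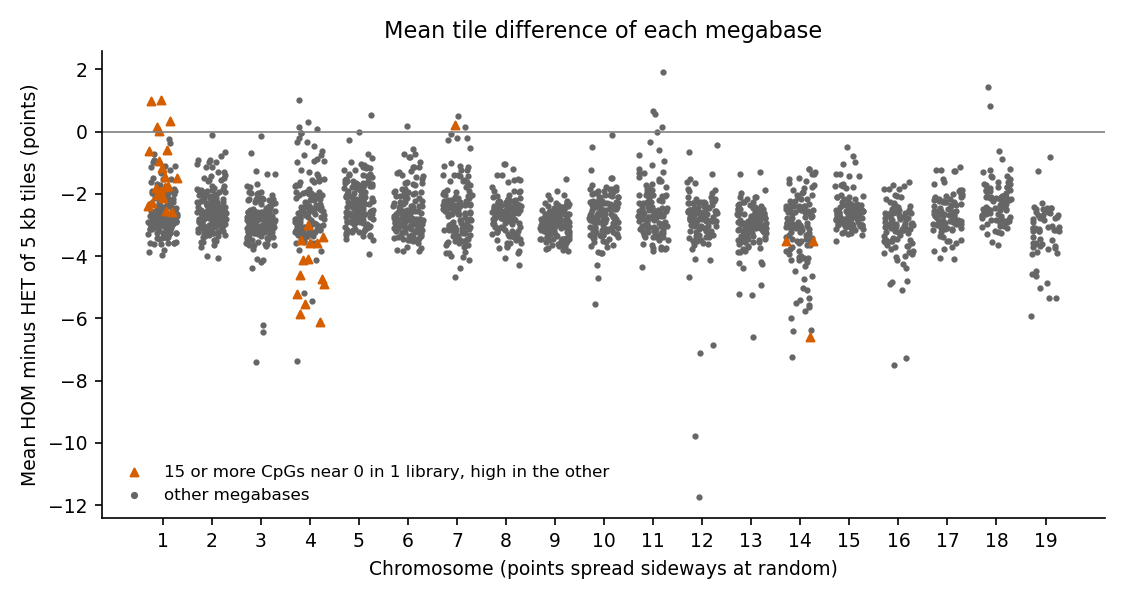
Mean HOM minus HET of 5 kb tiles (percentage points) for each megabase, by chromosome; triangles mark megabases with at least 15 CpGs nearly unmethylated in 1 library and highly methylated in the other. Points lie mostly between -4 and 0, the lowest at -11.7 points on chromosome 12, and the triangles of chromosome 4 lie below most of its other points.

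Single CpGs that switched between the libraries were clustered. Of 10773699 CpGs with at least 8 reads in both, 1794 were at most 10% in HOM and at least 80% in HET, and 1016 the reverse. A set of 39 of the 2413 megabases held 1395 of the first and 653 of the second. On chromosome 4, between 136000001 and 156000000, 14 megabases held 1299 CpGs low in HOM and 12 low in HET. On chromosome 1, between 5000001 and 55000000, 21 megabases held 2 and 620. On chromosome 7, 1 megabase (125000001 to 126000000) held 0 and 21, and the body of Kdm8, called higher in HOM, lies in it. A CpG lost by a sequence variant reads as unmethylated in such data, and variants were not measured here. The 39 megabases held 2.24% of the low-methylated regions but 8 of the 30 called lower and 15 of the 55 called higher. The lower ones include those named at Cela2a, Capzb, C1qb and Tnfrsf14, and the higher ones those at Ephb2, Sf3b1 and Rb1cc1. Ephb2 and several other higher ones lie on chromosome 4, where the switched CpGs were mostly low in HOM and not in HET. The 39 megabases also held 1.83% of the gene bodies, with 11 of the 204 called lower and 2 of the 19 called higher. The bodies of Cela2a and Mxra8 described above are among these lower ones, and that of Kdm8 among the higher ones. Of the tiles the 39 megabases held 1.65%, but 239 of the 2959 called lower and 70 of the 341 called higher. The tiles named near Sntg1, Prim2 and Pcmtd1 are among these higher ones. The part of such variants in these calls was not tested.

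Kmt2d itself did not stand apart. Its body was at 75.9% in WT, with 76.3% in HET and 72.3% in HOM, a difference of -3.97 points, or -1.75 position-matched, and its interval (-6.22 to -1.73) holds the mean of all bodies. Its CpG-richer end, which does not hold its annotated start, was nearly unmethylated, at 0.366%, 0.561% and 0.997%. The genotype cannot be checked from methylation counts.

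Markers of the labelled cell type were partly unmethylated, as were some markers of other cells. Of the B cell markers, the ends of Ebf1 and Pax5, transcription factors of the lineage, stood at 0.281% and 4.52% in HET and at 0.556% and 4.77% in HOM. The body of Cd79a, a chain of the B cell receptor, stood at 53.4% in WT, with 37.8% in HET and 42.1% in HOM. The ends of Ms4a1, which encodes CD20, stood at 15.04%, 14.4% and 26.2%, and the interval of their difference included 0 (-0.43 to 24.7). Of the 9 B cell markers none was called at its end or body, and the median difference was 2.58 points at ends and -3.28 points in bodies.

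Of the T cell genes 2 bodies were called lower in HOM. In the T cell list, 23 gene bodies had a median difference of -5.96 points (-5.05 position-matched) against -2.65 (-2.45) in all bodies, and 22 of the 23 stood below 0, as did 88.4% of all bodies. Cd3d, a chain of the T cell receptor complex (chromosome 9, 44982769 to 44986052), was called lower and stood at 68.5% in WT, with 82.2% in HET and 66.6% in HOM from 552, 771 and 578 CpG reads. Cd8a, the co-receptor of cytotoxic T cells, was also called lower and stood at 78.1%, 87.8% and 73.4%. Their position-matched differences were -15.9 and -13.7 points. The 2 calls in 23 bodies compare with 1.19% of all bodies. At gene ends 0 of 23 members were called, with a median of -2.65 points, a range from -21.9 to 11.4 and 13 of the 23 below 0. Of those furthest below HET, Cd3e stood at 52.5%, 77.0% and 55.1%, Cd3g at 58.1%, 72.01% and 53.6% and Cd8a at 64.7%, 76.2% and 54.6%. The ends of the markers Lck, Bcl11b, Cd4 and Cd28 lay above HET instead, by 6.05, 2.76, 2.42 and 1.01 points, although position-matched Lck and Cd28 lay below it, at -2.78 and -2.99. At Cd3e, Cd3g and Cd8a HET was the highest library, and their adjusted p-values from Fisher's exact test were 0.286, 0.539 and 0.539. B cells carry joined heavy chain segments, and joining removes DNA between D and J segments. In the stretch between Ighd4-1 and Ighd3-2 (chromosome 12, 113430539 to 113448213), coverage was 0.281 times the mean in WT, 0.241 in HET and 0.209 in HOM, against 0.997, 1.08 and 1.06 in the 100 kb on the constant side of Ighd. The part of other cells in the T cell gene values was not tested.

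**Figure D5:**
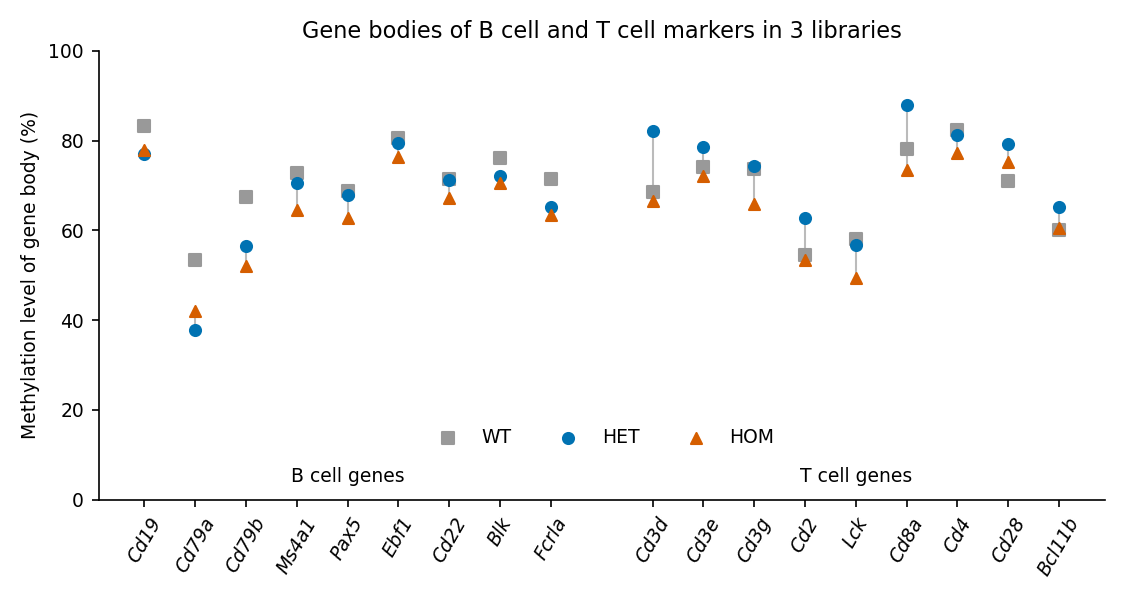
Methylation level (%) of the bodies of 9 B cell and 9 T cell marker genes in the WT, HET and HOM libraries, with a line between HET and HOM. HOM lies below HET in each of the 9 T cell genes, most at Cd3d (82.2% against 66.6%), and in 7 of the 9 B cell genes.

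The lists of other blood cells held 2 calls, both in the myeloid list. Outside the lists, and named after their values were seen, the bodies of Klrc1 and Klra7, NK cell receptor genes, and of Tyrobp, a signalling adaptor of NK and myeloid cells, were also called lower. Position-matched, these bodies differed by -3.22, -14.2 and -10.3 points. The NK cell gene ends went the other way, with a median of 0.31 points, 5 of 12 below 0 and 0 called. In the NK cell list the median of 11 bodies was -4.76 points and 0 were called, with Gzmb, a cytotoxic granule protease, at 86.3%, 89.1% and 79.7% and Klrk1, an activating receptor, at 81.3%, 82.7% and 73.7%. In the myeloid list 2 of 13 bodies were called lower, against 1.19% of all bodies, with a median of -2.46 points. Both calls end with HOM scaled to the mean tile level of HET, at -12.3 points for Lyz2 and -8.27 for Fcgr3. Lyz2, which encodes lysozyme, stood at 88.0%, 90.1% and 75.2% from 92, 182 and 125 CpG reads, and Fcgr3, an Fc receptor gene, at 71.3%, 77.1% and 66.5%, or -6.26 points position-matched. Myeloid gene ends had a median of -5.76 points (-4.54 position-matched) at a median level of 79.3% in HET, where ends at 70 to 80% in WT had a mean of -2.88, and 0 of 20 were called. Erythroid and platelet bodies had a median of -2.58 points and 0 calls in 11.

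No body was called in the lists of B cell identity (20 bodies, median -2.78 points), germinal centre and plasma cells (22, -2.39), B cell subsets and homing (19, -2.67), lymphoma genes linked to KMT2D (19, -3.11), the KMT2D complex and its relatives (17, -1.73) and the DNA methylation machinery (18, -2.31), against a median of -2.65 in all bodies. Of all bodies 1.19% were called lower and 0.111% higher. In lists of this size 0 calls lie near that share, and they do not show that these genes were spared. Outside the lists, and named after its value was seen, Cd27, a receptor gene of memory B cells and T cells, was called lower in its body, at 49.2% in WT, with 61.6% in HET and 45.3% in HOM. Fas, the death receptor, lay just under the limit of 10 points in its body, at 81.9% in WT, with 82.5% in HET and 72.6% in HOM, or -11.0 points position-matched. The body of Cxcr4, a chemokine receptor gene, stood at 21.4%, 22.1% and 34.8%, but differed by 1.06 points position-matched. The end of Tnfrsf14 stood at 29.6%, 40.4% and 25.2%, with an adjusted p of 0.862 (Fisher's exact test, Benjamini-Hochberg adjusted). Kdm1a, an H3K4 demethylase, stood at 84.3%, 86.9% and 80.7% in its body, and Tdg, a glycosylase of active demethylation, at 86.2%, 91.6% and 85.5%. Both differed by less than 10 points.

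Among the remaining lists, germline gene ends had 1 call in 18, Tdrd1, against 0.0155% of all ends called lower. Their median was -2.35 points at levels near 90%. All ends at 80 to 90% in WT had a mean of -3.07 points, and those at 90 to 100% a mean of -2.25. Housekeeping bodies had 2 lower calls in 15, among them Rpl13a, against 1.19% of all bodies. Developmental regulators (29 bodies, median -1.66 points), tumour suppressors (22, -3.33), imprinted genes (16, -2.04) and AP-1 genes (14, -1.11) held none. The end of Igf2r, an imprinted receptor gene, stood at 41.5%, 38.8% and 21.2%, and that of Zrsr1, an imprinted splicing factor gene, at 38.2%, 54.4% and 32.9%. Position-matched they differed by -10.3 and -15.6 points, and neither was called.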

How the data were processed

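Per the labels' protocols, 200 ng of DNA in fragments of about 800 bp was bisulfite-converted and sequenced over the whole genome in 150 bp paired reads. Per the file headers and values, the deposited table holds raw counts of methylated and of covering reads at each CpG, with no normalization. Per the submitters' processing notes the build was mm10 and the tools were Bismark, Bowtie2, Trim Galore 0.2.8 and Picard 1.91, or BWA 0.7.13, Picard 2.3.0 and MethylDackel. The sources used here do not say which set made these columns, nor whether a column holds 1 sample of a genotype or both. The other samples were not analysed here.

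A level is the sum of methylated reads over that of covering reads in a region with at least 3 CpGs (tiles 5) and 30 CpG reads in HOM and in HET. CpG islands were found from CpG positions (score 17 per CpG, -1 per other base, over 200 bp, at least 6 CpGs per 100 bp). Low-methylated regions are runs of at least 4 CpGs over 100 bp, more than 500 bp from islands, with a running level over 3 CpGs under 50%. Gene positions and promoter sequences came from RefSeq GRCm38.p6 tables, and 16457 of 20665 genes had a strand. Counts were divided by the number of CpGs within 75 bp of each CpG before Fisher's exact test (two-sided, Benjamini-Hochberg adjusted). Intervals are 95%, of Newcombe for differences, Wilson for levels and normal for means over regions, and cover counting error only. The position-matched difference weights each CpG by the product over the sum of its reads in both libraries. The tests were checked on simulated counts. Python 3.11.15, numpy 2.4.6 and pandas 2.3.3 were used.

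Named regions are called ones with 60 or more CpG reads in each library, 10 bodies, 10 ends, 5 low-methylated regions and 3 tiles with the greatest difference in each direction, without predicted and Riken genes, under the name of the gene that holds them or lies nearest. Kmt2d was also to be named, with up to 4 called members of each of 16 gene lists or, with none called, the 2 that differed most, and some regions that these rules name are left out of the text. The comparison, members and lists were chosen with earlier results of these data known.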

Additional observations from a re-analysis of the deposited data

How the results depend on the processing

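No paired analysis was possible because the table has 1 pair of columns for each genotype, and for the same reason no replicate could be left out. Counting CpG reads as they are, which treats the CpGs of a read as independent, gave 285 lower and 37 higher gene bodies, 594 and 148 gene ends, 1213 and 2137 low-methylated regions, and 14420 and 1927 tiles. With a limit of 20 points, 18 bodies and 359 tiles were lower and 2 and 128 higher. With HOM scaled so that the mean tile level equalled that of HET, 63 bodies, 0 gene ends and 739 tiles were lower and 29, 2 and 823 higher, so the excess of lower tiles turned to an excess of higher ones. Position-matched, 74 bodies and 1776 tiles were lower and 8 and 214 higher. Taking the whole gene span gave 392 lower bodies, of which 94 were among the 204. Taking the gene start by strand gave 4 lower and 2 higher ends. Low-methylated regions with a running level under 30% gave 1 lower and 5 higher. The mean difference moved to -2.54 points in bodies and -1.21 in gene ends as a mean of single CpGs, and to -2.54 and -1.22 position-matched. In low-methylated regions it was 0.48 with 60 CpG reads, 0.46 position-matched and 0.58 when segmented on WT alone. Of 44 named regions that were called, 2 changed sign when position-matched, the body of Spx (-1.34 points) and the tile near Gtpbp4 (1.51), and 8 others fell under 10 points. Without the 39 megabases rich in switched CpGs no count moved by over 1.5 times, and 22 lower and 40 higher low-methylated regions were left. The cause of these changes was not tested. The position-matched difference and the removal of megabases were chosen after the data had been seen. Regions under 30 CpG reads were not compared.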
